A study of Bos taurus with 61 samples.

Results

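Transthyretin (TTR) and 5 other genes known from the choroid plexus, FOLR1, KL, OTX2, CLIC6 and AQP1, were followed through 8 tissues of PRE and POST heifers. They were looked up among 24616 genes by the gene symbol, the protein entry name or a pairing of identifier and symbol given with the study, and 5 of the 6 were found. No gene could be matched to CLIC6, which was not analysed here. The 6 genes were put together, and hypothalamus and pituitary gland put first, with the measured values of these tissues already known, so they were chosen by their RPKM values, the ones described here, as well as by their names. The levels and differences of the 5 genes are therefore a description, and no test is attached to them.

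The study used 8 Brangus heifers, a Brahman and Angus cross, 4 before puberty (PRE, low serum progesterone) and 4 after it (POST, killed in the mid-luteal phase). POST heifers were older and heavier than PRE heifers, so stage, age, weight and luteal progesterone cannot be told apart, and all tissues of a stage came from the same animals. The hypothalamus reached from the chiasm back to the arcuate nucleus, both lobes of the pituitary gland were taken as 1 sample, and adipose tissue came from the abdominal cavity, while uterus and endometrium lay on the side of the corpus luteum in POST heifers and of the larger ovary in PRE heifers. RNA-Seq of 61 libraries was summarised by the authors as a mean number of unique reads and a mean RPKM (reads divided by exon length and library total) for each of 16 groups. The mean unique reads of a group summed to between 17109554 (PRE endometrium) and 27132722 (PRE adipose tissue), and CPM below is a gene's mean unique reads scaled to this sum. Only these means were used, so no spread between animals, no overlap between groups and no p-value can be given, and an interval stated below covers counting error of reads only. Markers of another tissue were higher in some POST groups. In POST hypothalamus 3 of 9 anterior pituitary genes matched were higher than in PRE hypothalamus by at least 4-fold, among them PRL (31.3 and 180). In POST ovary all 9 anterior pituitary genes matched were higher than in PRE ovary by at least 4-fold, with a summed RPKM of 155 in PRE and 30279 in POST, and in POST adipose tissue 9 of 10 liver transcripts were higher. In bulk tissue, fewer cells of a type and less RNA per cell cannot be told apart.

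The choroid plexus is a sheet of epithelium over a leaky capillary bed that hangs into the ventricles of the brain and secretes cerebrospinal fluid. It lies next to, and not within, the hypothalamus, whose medial face borders the third ventricle. TTR, which carries thyroxine and, with retinol-binding protein, retinol, is made mainly by this epithelium and by hepatocytes. FOLR1 takes folate up by endocytosis and moves it into cerebrospinal fluid, AQP1 is a water channel of the apical membrane that is also present in capillary endothelium and red cells, and CLIC6 belongs to the chloride intracellular channel family. KL (klotho) is a membrane protein that pairs with FGF receptors to bind FGF23, and OTX2 is a homeodomain transcription factor that specifies forebrain and midbrain and is needed for the choroid plexus to form.

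On the UMD3.1 assembly, TTR (ENSBTAG00000010991) lies on chromosome 24 from 25854675 to 25863535, FOLR1 (ENSBTAG00000021007) on chromosome 15 from 52572873 to 52583867 and AQP1 (ENSBTAG00000000745) on chromosome 4 from 65830992 to 65845186. KL (ENSBTAG00000013984) lies on chromosome 12 from 28073218 to 28110415 and OTX2 (ENSBTAG00000014741) on chromosome 10 from 69458818 to 69462865. Each of the 5 genes was represented once and overlapped no other listed gene. FOLR1 belongs to a family of similar folate receptor genes, so its reads could be shared with a relative, which makes its values less certain.

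The thyroxine carrier TTR had its highest mean RPKM in liver, with 3690 in PRE and 3703 in POST heifers. The next highest group was the PRE pituitary gland with 805, which was 21.8% of the level in PRE liver. In the POST pituitary gland the mean was 12.1, or 0.328% of POST liver. TTR thus stood 91st of all genes by RPKM in the PRE pituitary gland and 4934th in the POST gland. In the hypothalamus, TTR had 40.9 in PRE and 54.0 in POST heifers, so the stages lay close together there. In adipose tissue it had 10.1 in PRE and 124 in POST heifers, the fourth highest of all 16 groups. The remaining groups were low. They gave 10.2 and 3.34 in PRE and POST uterus, 6.32 and 8.24 in endometrium, 4.16 and 6.67 in ovary, and 3.97 and 3.46 in muscle.

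The folate receptor gene FOLR1 was highest in the female tract, with 13.3 RPKM in PRE against 44.9 in POST endometrium and 16.7 and 19.2 in PRE and POST uterus. In the hypothalamus it had 4.89 in PRE against 0.158 in POST heifers, and in the pituitary gland 3.37 and 0.263. Liver had 3.76 in PRE and 6.23 in POST heifers. The POST hypothalamus and pituitary gland were near or under the 0.2 RPKM used here as the lowest level compared. Adipose tissue had 0.115 and 0.317, ovary 0.0620 and 0.0460, and muscle was listed at 0 in PRE and at 0.0290 in POST heifers. Uterus and endometrium held the 4 highest means on RPKM, but by CPM PRE hypothalamus (36.5) stood above PRE uterus (27.4) and PRE endometrium (20.7). PRE hypothalamus stood above PRE liver on both measures, the liver having a CPM of 8.29.

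The water channel gene AQP1 was present in all 16 groups. Its highest mean RPKM was 54.4 in the PRE pituitary gland, followed by 49.9 and 43.4 in PRE and POST adipose tissue and 32.6 in PRE endometrium. Ovary, with 27.2 and 26.8, and muscle, with 27.8 and 19.2, came next, and uterus had 15.2 and 19.7. The POST pituitary gland was at 8.59 and the POST endometrium at 5.77. Liver had 3.90 and 2.93, and the hypothalamus was lowest of the 8 tissues, with 2.59 in PRE and 0.840 in POST heifers.

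KL was low throughout, with no group reaching 1 RPKM. Its highest means were in liver, with 0.527 in PRE against 0.556 in POST heifers, and in the POST pituitary gland with 0.474, against 0.320 in the PRE gland. The hypothalamus had 0.173 and 0.220. Endometrium had 0.279 in PRE and 0.050 in POST heifers, the widest gap between stages for this gene. Ovary, uterus and adipose tissue lay between 0.232 and 0.335, and muscle had 0.0310 and 0.0270. These levels rested on means of 3.50 to 79.5 unique reads, and 66.5% of all genes had a highest mean at or above that of KL.

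OTX2 was confined, at or above 0.2 RPKM, to the hypothalamus and the pituitary gland. The hypothalamus had 7.17 in PRE and 3.03 in POST heifers, and the pituitary gland 2.35 and 0.255. In the other 12 groups OTX2 reached at most 0.114 RPKM, a mean of 7.75 reads in the POST ovary, the group in which the anterior pituitary genes summed to 30279. The part of pituitary RNA in that value was not tested. No read was counted in PRE or POST liver, POST uterus or PRE muscle, and 3 reads over the 4 libraries would be a CPM of 0.0337 in PRE liver and 0.0298 in POST liver. Shannon entropy over the 8 tissue means of log2(RPKM + 1), which is 0 for a gene of 1 tissue and 3 for a gene equal in all, was 1.22 for OTX2, 2.32 for FOLR1, 2.76 for TTR, 2.80 for KL and 2.90 for AQP1.

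**Figure D1:**
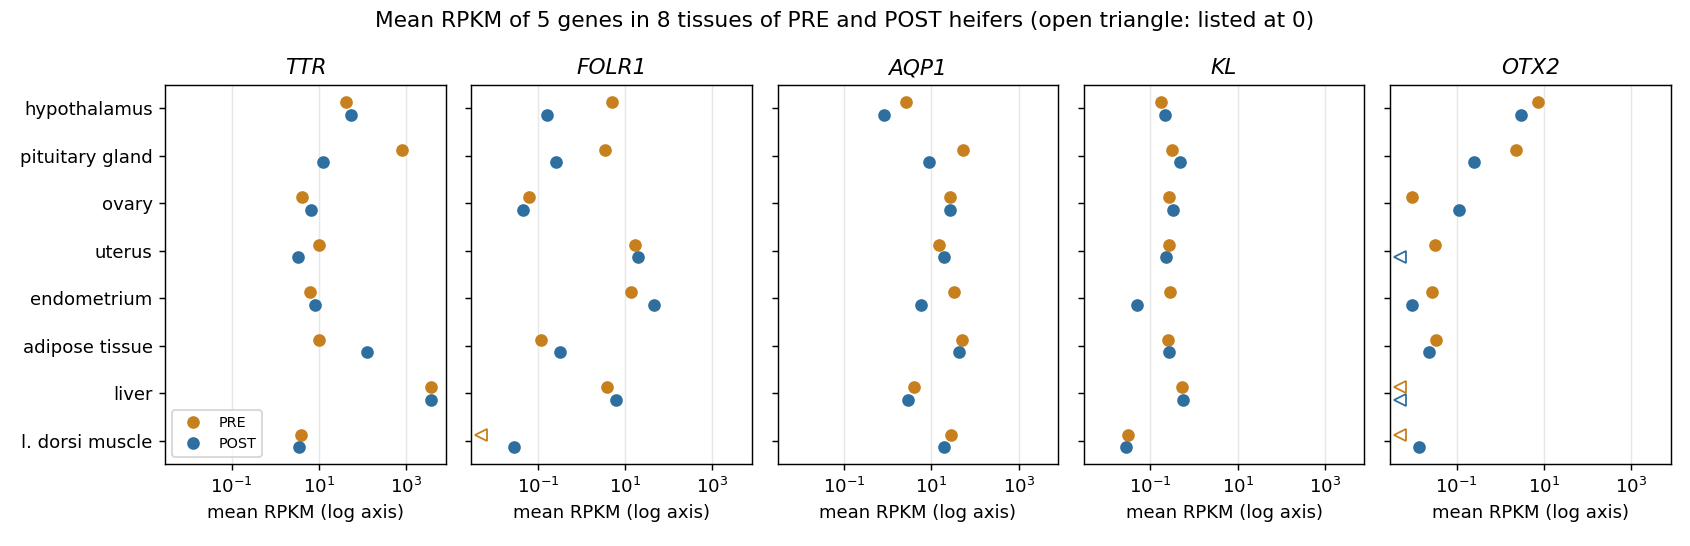
Mean RPKM on a log axis for TTR, FOLR1, AQP1, KL and OTX2 in 8 tissues, with PRE heifers in orange, POST heifers in blue and groups listed at 0 as open triangles. TTR drops from 805 to 12.1 in the pituitary gland while liver stays at 3690 and 3703, FOLR1 is highest in uterus and endometrium, and OTX2 reaches 0.2 RPKM only in the 2 upper tissues.

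Stages were compared as the difference of log2(RPKM + 0.2), POST minus PRE, for genes at 0.2 RPKM or more in 1 stage or both, and a difference of at least 4-fold, which is 2 on this scale, was counted. In the pituitary gland 4 of the 5 genes were lower in POST heifers by at least 4-fold, TTR, FOLR1, OTX2 and AQP1, where 2.44% of 15362 genes compared were that much lower and 0.104% that much higher. These values helped to choose the genes, so nothing is read from the 2 shares. TTR had the largest difference of the 5, -6.03, which was 7th among all genes that were lower. AQP1 was lower by 2.63, OTX2 by 2.49 and FOLR1 by 2.95, whereas KL had a difference of 0.37. The median difference of the 5 genes was -2.63, and that of all genes compared was 0.11.

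The reads behind these pituitary means differed in number. The PRE means divide by 4 where 3 libraries are labelled, so what entered them is not known, and the intervals here use that 4. TTR went from a mean of 12279 unique reads in PRE to 184 in POST heifers, a log2 ratio of CPM of -6.13 with a 95% exact binomial interval from -6.24 to -6.03. AQP1 had 3719 and 604 reads, with a ratio of -2.69 and an interval from -2.75 to -2.63. OTX2 had 110 and 12.2 reads, with a ratio of -3.24 and an interval from -3.69 to -2.81. FOLR1 had 89.0 and 22.5 reads, with a ratio of -2.05 and an interval from -2.40 to -1.71 that spans 4-fold. The call for FOLR1 was lost when CPM replaced RPKM (-1.87), and those for FOLR1 (-1.79) and OTX2 (-1.42) when 1 and not 0.2 was added, so 2 genes, TTR and AQP1, remained counted in the last case.

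In the hypothalamus 1 of the 5 genes, FOLR1, was lower in POST heifers by at least 4-fold, against 0.202% of 15380 genes compared, and none of the 5 was higher, against 0.215%. FOLR1 differed by -3.83, the second lowest value of all genes compared there. OTX2 differed by -1.19 and AQP1 by -1.42, both past 2-fold and short of 4-fold. TTR differed by 0.40 and KL by 0.17, so the 5 genes did not go one way in this tissue, and their median was -1.19 against 0.07 for all genes. FOLR1 had 685 mean reads in PRE against 17.7 in POST heifers, OTX2 281 and 127, AQP1 161 and 56.0, TTR 568 and 810, and KL 19.7 and 29.0. A pair of the hypothalamus libraries had shorter reads than all others, and since the means there divide by 3 where 4 libraries are labelled in each stage, whether that pair entered the means is not known.

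Outside these tissues the genes differed one at a time. In endometrium AQP1 was lower in POST heifers by 2.46, the only one of 4 compared that was lower by 4-fold, against 3.31% of all genes, with 1871 mean reads in PRE and 375 in POST. FOLR1 differed there by 1.75 and KL by -0.94, and both passed 4-fold when CPM was used, with 2.64 and -2.17. In adipose tissue TTR was higher in POST heifers by 3.59, the only one of 4 compared that was higher by 4-fold, against 1.95% of all genes, with 154 reads in PRE and 1658 in POST. None of the genes compared passed 4-fold in either direction in ovary (3 compared, 1.94% of all genes called), uterus (4 compared, 2.94%), liver (4 compared, 0.0812%) or muscle (2 compared, 0.729%). The largest difference in these tissues was that of TTR in uterus, -1.55. TTR in liver, its main site, differed by 0.00, with 55240 mean reads in PRE and 64068 in POST heifers.

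**Figure D2:**
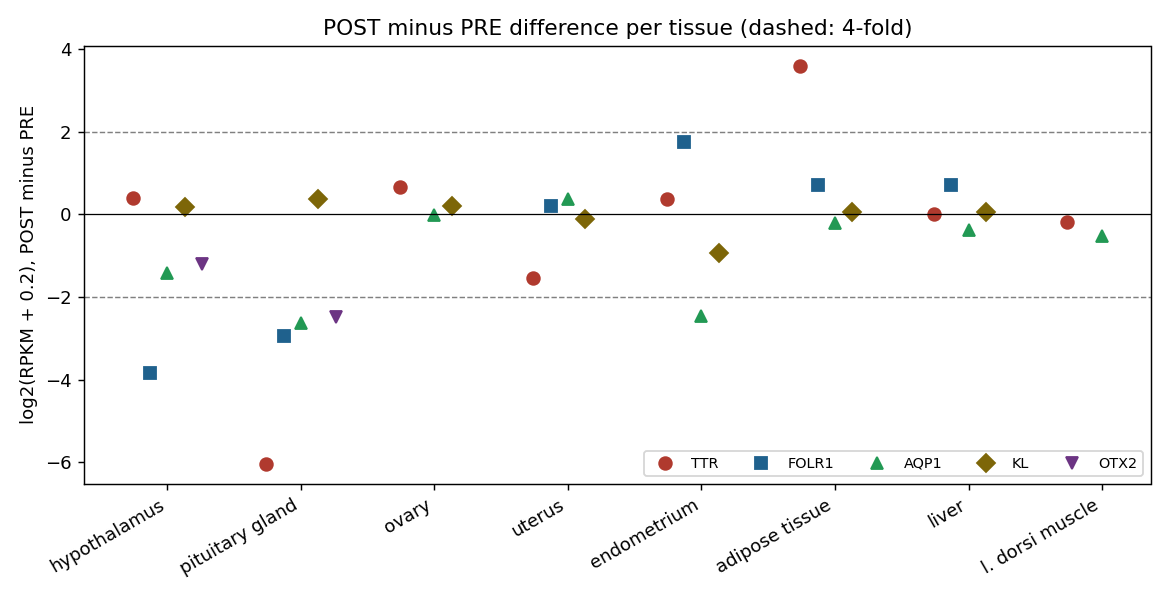
Difference of log2(RPKM + 0.2), POST minus PRE, for each gene in each tissue where it was compared, with dashed lines at 4-fold. TTR, FOLR1, AQP1 and OTX2 lie below -2 in the pituitary gland, FOLR1 alone in the hypothalamus and AQP1 alone in endometrium, and TTR lies at 3.59 in adipose tissue.

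The hypothalamus was then set against the pituitary gland within each stage, on the same scale and as hypothalamus minus pituitary gland. In PRE heifers TTR and AQP1 were lower in the hypothalamus by at least 4-fold, at -4.29 each, against 5.58% of 15850 genes, and none of the 5 was higher, against 8.49%. In POST heifers AQP1 was still lower, at -3.08, against 4.10% of 15728 genes, while TTR, at 2.14, and OTX2, at 2.83, were higher, against 9.99%. The order of the tissues thus turned round for TTR, with 805 in the pituitary gland above 40.9 in the hypothalamus in PRE heifers, and 12.1 below 54.0 in POST heifers. OTX2 was higher in the hypothalamus at both stages, by 1.53 in PRE heifers, and KL differed by -0.48 in PRE and -0.68 in POST heifers. FOLR1 differed by 0.51 in PRE and by -0.37 in POST heifers on RPKM.

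The RPKM and read means kept a steady ratio for 4 of the genes, and not for FOLR1. For TTR, a CPM of 1 corresponded to 1.32 to 1.79 RPKM across groups, for AQP1 to 0.298 to 0.341, for KL to 0.102 to 0.192 and for OTX2 to 0.346 to 0.484 where 5 reads or more were counted. For FOLR1 it corresponded to between 0.0901 RPKM in POST ovary and 0.771 RPKM in the PRE pituitary gland, an 8.55-fold range. Of 14737 genes with that many reads in 14 groups or more, 6.04% had a range at least as wide, and the median range was 1.42. By CPM, FOLR1 had 36.5 in PRE hypothalamus and 4.37 in PRE pituitary gland, so that the hypothalamus was higher by 3.00 on the log2 scale, where RPKM gave 0.51. By the same measure it had 0.869 in POST hypothalamus and 1.05 in POST pituitary gland, 27.4 and 66.7 in PRE and POST uterus and 20.7 and 130 in endometrium. The lower FOLR1 value of the POST hypothalamus held on both measures, and what set the 2 measures apart was not tested.

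**Figure D3:**
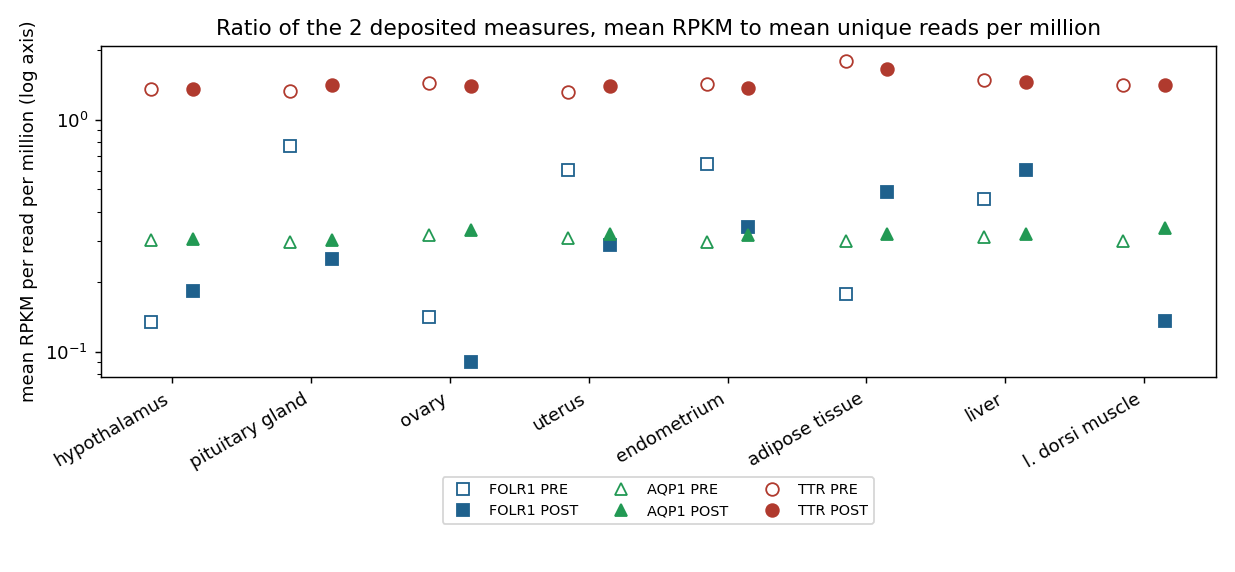
Mean RPKM divided by CPM, on a log axis, for TTR (circles), AQP1 (triangles) and FOLR1 (squares) in each tissue, with open symbols for PRE and filled symbols for POST heifers. TTR stays between 1.32 and 1.79 and AQP1 between 0.298 and 0.341, while FOLR1 spreads from 0.0901 to 0.771.

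Other genes of choroid plexus epithelium were listed beside the 5 genes, and 24 of 32 listed symbols were matched. Some matched genes were also high outside the brain, as CST3 with 1502 and CLU with 872 in PRE adipose tissue. The median of the list therefore cannot show whether choroid plexus RNA was present. KCNJ13, SLC13A4, SOSTDC1, TRPM3, KCNE2, HTR2C, KRT18 and COL8A1 were not matched, so the counts and medians below leave them out. In the pituitary gland 1 of the 24 compared was lower by 4-fold, CST3 (cystatin C, a protease inhibitor made by many cells), with 863 in PRE and 187 in POST heifers, and none was higher. The median of the list was 0.09, beside 0.11 for all genes. IGF2, a growth factor of choroid plexus and meninges, had 82.5 and 28.7, ENPP2 (autotaxin) had 6.05 and 2.84, and STEAP1, a metalloreductase, had 0.810 and 1.66. MSX1, CLDN3 and SLC12A2, a homeobox factor, a tight junction protein and an ion cotransporter, had 25.6 and 32.0, 6.71 and 11.1, and 5.72 and 9.57, and were named after their values were seen. CLDN2, a claudin typical of this epithelium, had 0.258 in the PRE and 0.0110 in the POST gland. In all, 14 of the 24 genes were higher and 10 lower at any size, while at 2-fold 4 were lower, CST3, IGF2, CLDN2 and ENPP2, and 0 higher. The summed RPKM of the list, to which CST3 gave most of the difference, was 1834 in PRE and 825 in POST.

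In the hypothalamus 1 of 23 listed choroid plexus genes compared was lower by 4-fold, IGF2, with 12.7 in PRE and 2.78 in POST heifers, and none was higher. CP (ceruloplasmin), which carries copper, had 3.55 and 1.04, STEAP1 1.86 and 0.595, and IGFBP2, a binding protein of insulin-like growth factors, 9.15 and 4.50. The median of the list was 0.17 and that of all genes 0.07. At 2-fold 3 were lower, IGF2, CP and STEAP1, and 0 higher. CP, at -1.60, and STEAP1, at -1.37, differed by about as much as OTX2 and AQP1 there, and the summed RPKM of the list was 2031 in PRE and 2652 in POST. Most of the matched genes lay within 2-fold in each tissue, and the levels of those not matched are not known. The list cannot tell whether choroid plexus RNA was present, so the genes followed here are called by their symbols and not by a tissue.

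Among genes around TTR that handle thyroid hormone and retinol, 9 of 14 were matched, and none of 8 compared passed 4-fold in the pituitary gland or the hypothalamus. DIO2, the deiodinase that makes active thyroid hormone, had 12.2 in the PRE and 25.8 in the POST pituitary gland, THRB, a thyroid hormone receptor, 8.53 and 16.7, and CRYM, a thyroid hormone-binding crystallin, 15.8 and 10.1. In the hypothalamus DIO2 went the other way, with 5.25 and 1.38, and STRA6, the retinol uptake receptor, had 1.69 and 0.682. SLCO1C1, a thyroxine transporter, had 1.16 and 0.595 there. The median of the list was -0.04 in the pituitary gland and -0.54 in the hypothalamus.

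Of the folate genes around FOLR1, 8 of 14 were matched and none of the 8 passed 4-fold in either tissue. SLC19A1, the reduced folate carrier, had 2.62 in the PRE and 1.15 in the POST pituitary gland and 3.50 and 2.85 in the hypothalamus. SLC46A1, the proton-coupled folate transporter that works with FOLR1 at the choroid plexus, had 3.41 and 3.27 in the pituitary gland and 8.11 and 8.73 in the hypothalamus. SHMT1, which loads folate with a carbon unit from serine, had 1.53 and 0.823 in the pituitary gland. MTHFD2, a mitochondrial enzyme of the pathway, had 4.2 and 5.29. In the hypothalamus SHMT1 had 9.80 and 6.88, ALDH1L1 7.72 and 5.45, and GGH, which trims the glutamate tail, 16.2 and 21.3. The list's median was -0.01 in the pituitary gland and -0.06 in the hypothalamus.

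Of 14 genes of klotho and endocrine FGF signalling, 10 were matched and none of the few at 0.2 RPKM passed 4-fold in the pituitary gland (4 compared, median -0.21) or the hypothalamus (5 compared, median -0.06). ADAM10 and ADAM17, the proteases that shed klotho from the membrane, had 14.4 and 17.7, and 7.84 and 7.93, in PRE and POST pituitary gland. In the hypothalamus they had 21.6 and 21.8, and 6.64 and 6.38. VDR, the vitamin D receptor, had 16.9 and 12.5 in the pituitary gland, and FGFR4 had 1.18 and 0.680 and CYP24A1 1.05 and 0.812 in the hypothalamus. KLB (beta-klotho), the partner for FGF21, was at 0.0990 and 0.123 in the pituitary gland and at 38.5 and 71.0 in PRE and POST adipose tissue, so it had a tissue pattern unlike that of KL.

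Of 16 homeobox factors related to OTX2 and genes of the pineal gland, 12 were matched and none of 9 compared in the pituitary gland or 6 in the hypothalamus passed 4-fold. In the pituitary gland the factors of the anterior lobe were present at both stages, with LHX3 at 29.0 in PRE and 42.8 in POST heifers, PITX1 at 36.5 and 56.9 and SIX6 at 29.8 and 54.1. In the hypothalamus SIX3 had 6.30 and 11.9. The list's median was 0.51 in the pituitary gland, opposite in sign to the difference of OTX2, and 0.90 in the hypothalamus. In the POST ovary 5 of 8 compared were higher, with sums of 2.42 in PRE and 28.6 in POST.

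Of the channel families, CLIC1, CLIC4 and CLIC5 were matched, 3 of 5 listed. CLIC1 had 72.7 in the PRE and 18.4 in the POST pituitary gland, a difference of -1.97, CLIC4 20.2 and 15.7 and CLIC5 1.24 and 2.10. In the hypothalamus they had 8.96 and 10.5, 96.4 and 87.9, and 1.77 and 2.15. None of the 3 passed 4-fold, and their median was -0.36 in the pituitary gland and 0.22 in the hypothalamus. Of 12 other aquaporins 7 were matched, and none of the 4 compared in the pituitary gland (median 0.28) or the 2 in the hypothalamus (median -0.28) passed 4-fold. AQP4, the water channel of astrocytes and ependyma, had 250 and 241 in the hypothalamus and 3.08 and 3.95 in the pituitary gland, and AQP7, a glycerol channel, 1.36 and 0.898 in the hypothalamus. Beside the lower AQP1 in POST endometrium, AQP4 had 3.21 in PRE and 15.8 in POST endometrium, a difference of 2.23.

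Some markers of other cells were also lower in the POST pituitary gland. Of 8 endothelial genes matched of 10, 4 were lower by 4-fold in POST heifers, CLDN5 (87.7 and 0.637), VWF (72.3 and 5.01), ESAM (22.4 and 2.31) and PECAM1 (81.6 and 9.94), with a list median of -2.23 and a summed RPKM of 325 in PRE and 48.1 in POST. EMCN, FLT1 and TEK, also endothelial, were within 4-fold, TEK having 12.6 and 9.75. Of 10 genes of leptomeninges and stroma matched of 14, 5 were lower, COL1A1 (1900 and 57.4), COL1A2 (1390 and 86.8), COL3A1 (695 and 40.0), DCN (258 and 52.8) and PTGDS (256 and 27.2), with a median of -1.82 and sums of 4611 and 332. SLC6A13 and SLC22A6, transporters of the leptomeninges, were low at both stages, with 0.762 and 0.704, and 0.407 and 0.483.

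Glial genes of the pituitary gland were lower in part. MBP (myelin basic protein) had 701 and 10.8 and OPALIN 2.15 and 0.337, which made 2 of 7 oligodendrocyte genes, with a median of -0.84 and sums of 744 and 37.5. GFAP had 94.9 and 7.12 and S100B 157 and 29.2, 2 of 7 astrocyte genes, with a median of -0.38 and sums of 290 and 68.7. These 2 genes made up most of the PRE sum, and the other astrocyte genes were within 4-fold. Of those, AQP4 (3.08 and 3.95) and SLC1A3 (6.63 and 7.24) were slightly higher in POST heifers, and GJA1 (27.1 and 20.7), ALDH1L1 and SLC1A2 lower. VIM, the called 1 of 6 tanycyte genes matched of 8, had 665 and 83.0, and that list's median was -0.64. Genes of motile cilia and ependyma had a median of 0.27, none of 7 compared passing 4-fold. Of the 9 anterior pituitary genes and 8 genes of posterior lobe axons and hypothalamic neurons, none was called in this tissue, with medians of 0.55 and 0.37, and sums of 166360 in PRE and 231064 in POST, and of 129 and 182. PRL had 98325 and 167975 and GH1 55163 and 52868, so the hormone genes of the gland stood at both stages, and AVP and OXT were at 1.59 and 1.02, and 0.625 and 0.889. Red cell genes were low, with a median of -1.35 and a sum of 7.26 in PRE and 2.36 in POST, none of 4 compared passing 4-fold. HBA (2.60 and 0.505) and HBB (2.34 and 0.451) came close, at -1.99 and -1.96, and HBM and AHSP were lower by less. The part of these cells in the values of TTR, FOLR1, OTX2 and AQP1 was not tested.

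In the hypothalamus fewer lists moved. Leptomeningeal and stromal genes had a median of -1.07, with none of 10 past 4-fold, and included SLC6A13 (7.61 and 2.61), SLC22A6 (4.37 and 2.04), ALDH1A2 (2.26 and 0.434) and LUM (8.51 and 2.46). Genes of motile cilia and ependyma had a median of 0.96, with none of 9 past 4-fold, and sums of 12.4 in PRE and 24.9 in POST, among them FOXJ1 (1.52 and 6.07) and RSPH1 (4.75 and 6.76). Endothelial genes had a median of -0.11, astrocyte genes -0.05 and oligodendrocyte genes -0.17, none past 4-fold. Of 6 tanycyte genes GPR50 was higher, with 0.204 and 1.52, and RAX was listed at 0 in PRE and at 0.0260 in POST. PRL (31.3 and 180), GH1 (7.24 and 72.7) and CGA (1.30 and 7.20), hormone genes of the anterior pituitary, were higher in POST hypothalamus, 3 of 9 matched, with a median of 1.28. Neuronal genes had a median of 0.38, liver transcripts 0.42, tanycyte genes -0.30 and red cell genes -0.20. Their part in the values of FOLR1, OTX2 and AQP1 was not tested.

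**Figure D4:**
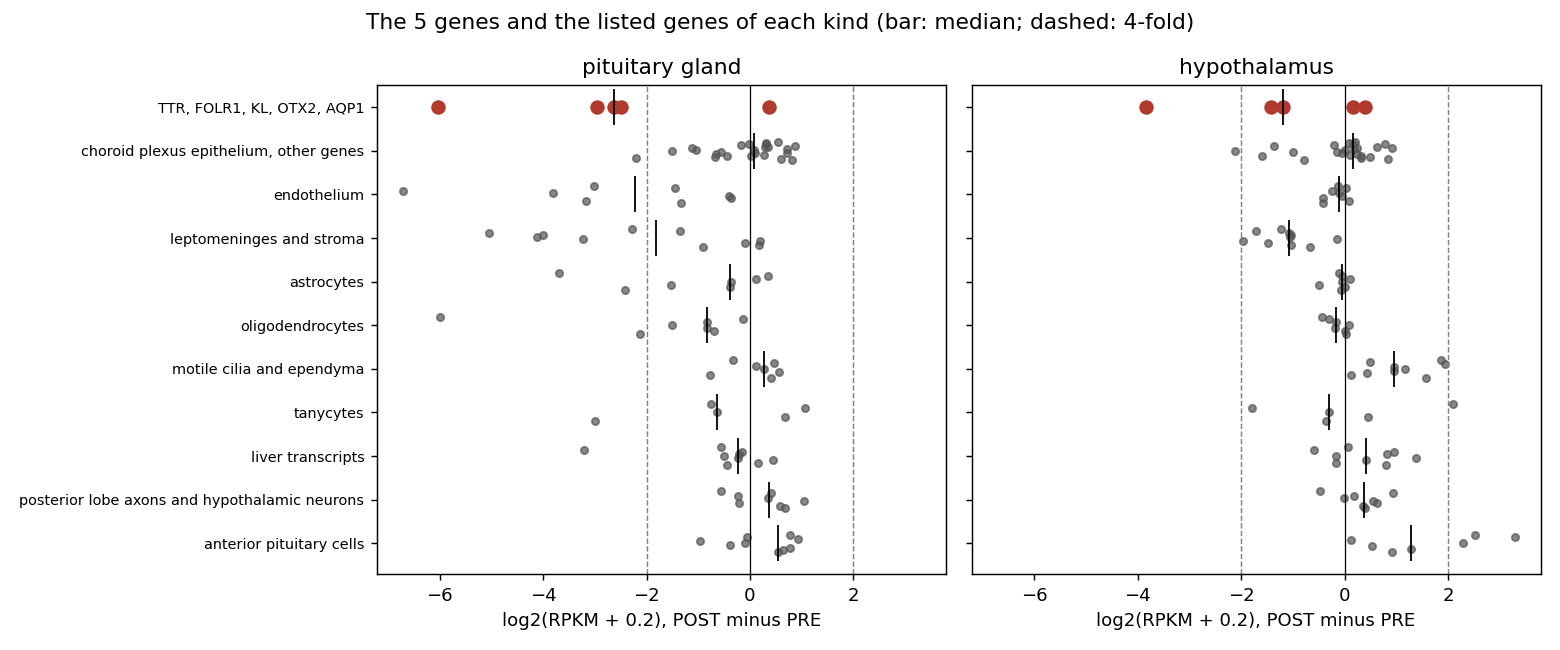
Difference of log2(RPKM + 0.2), POST minus PRE, in the pituitary gland and the hypothalamus, for the 5 genes in the top row and for the compared genes of each list below, with a bar at each median and dashed lines at 4-fold. In the pituitary gland the medians are -2.63 for the 5 genes, -2.23 for endothelium, -1.82 for leptomeninges and stroma and 0.09 for the other choroid plexus genes matched. The 5 genes were chosen with these values known, so nothing is read from how near the medians lie.

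TTR is also a liver transcript, so its level was set beside 10 others as a percent of their level in liver of the same stage. In PRE pituitary gland TTR was at 21.8% of liver, APOA1, a lipoprotein gene, at 34.0% and the other 9, ALB (albumin) among them, between 0.0535% and 0.247%. In POST pituitary gland TTR was at 0.328%, APOA1 at 3.1% and the other 9 between 0.0471% and 0.215%. Of the 10 liver transcripts, APOA1 alone was lower by 4-fold in this tissue, with 94.1 in PRE and 9.97 in POST heifers, while ALB was at 27 in PRE and 18.2 in POST heifers. In the hypothalamus TTR was at 1.11% and 1.46% of liver. In PRE pituitary gland the TTR share lay above those of albumin and 8 other liver transcripts and below that of APOA1. The part of liver RNA in the pituitary TTR values was not tested.

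In POST adipose tissue the liver transcripts were higher together. Of the 10, 9 were higher, with a median difference of 6.0 and a summed RPKM of 62.5 in PRE against 2396 in POST heifers. ALB had 17.2 and 1098, FGA (fibrinogen) 2.46 and 263 and HPX (hemopexin) 0.742 and 152. TTR was at 3.34% of its liver level, inside the range of the 9 transcripts other than APOA1, from 2.83% to 6.53%. In PRE adipose tissue TTR was at 0.274% and the same 9 between 0.0282% and 0.327%. The part of liver RNA in the TTR value of this tissue was not tested.

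The low TTR levels elsewhere were set beside the same 9 transcripts, with APOA1 left out. APOA1 stood above TTR in all of these groups. It was at 4.36% of liver in PRE uterus, 5.80% and 4.79% in PRE and POST endometrium and 0.526% in POST muscle. In POST uterus TTR was at 0.0902% of liver, within the range of the 9 transcripts from 0.0530% to 0.106%, and in PRE muscle at 0.108%, within 0.0819% to 0.129%. In PRE and POST ovary it was at 0.113% and 0.180%, below TF (transferrin, 0.168% and 0.272%) and above the other 8 of the 9, whose medians with TF were 0.0351% and 0.0945%. In PRE uterus, at 0.276%, and in PRE and POST endometrium, at 0.171% and 0.223%, it was above all 9. In POST muscle it was at 0.0936%, above the highest of the 9, 0.0543%.

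**Figure D5:**
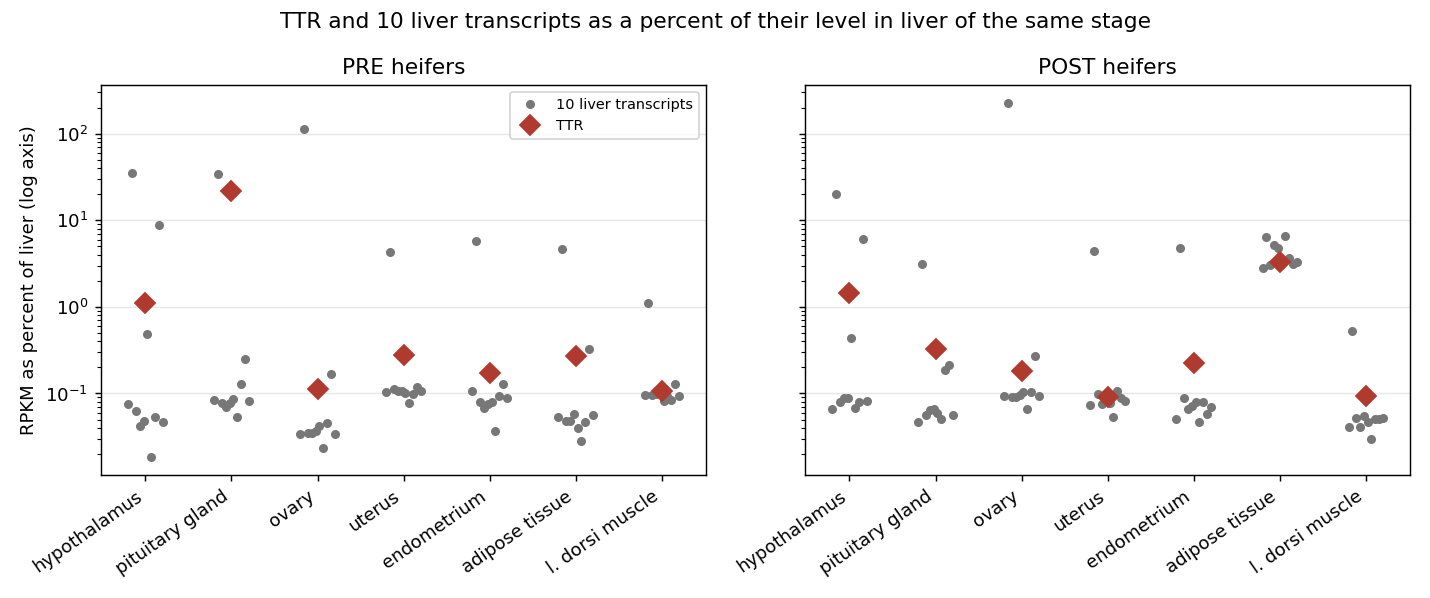
RPKM in each tissue as a percent of the RPKM in liver of the same stage, on a log axis, for TTR (red diamonds) and 10 liver transcripts (grey points) in PRE and POST heifers. TTR stands at 21.8% in PRE pituitary gland, far above all of the grey points but that of APOA1 (34.0%), and at 3.34% among the grey points in POST adipose tissue.

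AQP1 is known from endothelium and red cells, and its values were set beside those markers. In endometrium, where AQP1 had 32.6 in PRE and 5.77 in POST heifers, none of 8 endothelial genes passed 4-fold, their median was -0.57 and their sum 89.5 and 58.7. Red cell genes there summed to 2.26 and 3.02. In adipose tissue, where AQP1 differed by -0.20, the endothelial sum was 448 and 468. In the pituitary gland the endothelial median was -2.23 beside -2.63 for AQP1, and in endometrium -0.57 beside -2.46.

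The genes with the most similar pattern were ranked for each of the 5 by Pearson's r of log2(RPKM + 0.2) over the 16 groups, among 9354 to 9355 named genes that reached 1 RPKM. The groups share animals and tissues, so r is a description. For OTX2 the nearest were FEZF2 (0.982), IRX6 (0.968), MBP (0.968), SOX21 (0.965) and SLC6A13 (0.962), genes of forebrain, myelin and leptomeninges. For TTR they included TPH1 (0.914), TDH (0.913), TM4SF5 (0.897) and SEC1 (0.895), all highest in liver. TDH had 3.13 in the PRE and 4.26 in the POST pituitary gland and TPH1 1.26 and 1.68, so the pituitary difference of TTR was not shared by these genes.

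For AQP1 the nearest genes were EMP3 (0.902), ELN (0.899), TRIP10 (0.895), ECSCR (0.895) and MYO1C (0.877). ECSCR, an endothelial surface protein, had 59.2 in the PRE and 2.07 in the POST pituitary gland, and ELN (elastin) 63.7 and 14.8. For FOLR1 they were GGT5 (0.924), RNF43 (0.899), DCDC2 (0.877), PKHD1 (0.876) and VSTM5 (0.859), all highest in POST endometrium. RNF43 had 0.547 and 0.592 in the hypothalamus, where FOLR1 had 4.89 and 0.158. For KL they were ERO1LB (0.910), PPAPDC1B (0.910), GNE (0.906), SUOX (0.898) and SLC2A10 (0.883), all highest in liver.

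Between the 5 genes themselves, r over the 16 groups ranged from -0.41 for OTX2 and AQP1 to 0.61 for TTR and KL over the 10 pairs. TTR and FOLR1 had 0.20, TTR and OTX2 0.22 and FOLR1 and OTX2 -0.02. Apart from TTR and KL, both highest in liver, no pair had an r above 0.22. Of the 5 genes, 4 were lower together by 4-fold in the POST pituitary gland only.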

How the data were processed

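RNA of 8 tissues from PRE and POST heifers was sequenced, and groups followed the sample labels. The authors mapped reads to UMD3.1 with Ensembl release 74 genes in CLC Genomics Workbench and deposited, per tissue and stage, the mean RPKM and the mean number of unique reads; other units were not used. The means divide by 3 libraries in the hypothalamus although 4 are labelled, and by 4 in the PRE pituitary gland although 3 are labelled. From them, log2(RPKM + 0.2) differences, the 4-fold rule, CPM, exact binomial intervals and Pearson's r were computed. The tools were Python 3.11.15, numpy 2.4.6, scipy 1.17.1 and pandas 2.3.3. The 4-fold rule was tried on simulated means with larger planted changes in well-counted genes only. Calls near 4-fold or on few reads were not tested by it. Genes named are the 5 found; up to 4 genes of each pathway list with the largest differences at 1 RPKM or more, and called ones; leading genes of marker lists, with others named after their values were seen; and 5 nearest patterns. Of 193 listed symbols 147 were matched. The genes and lists were chosen with earlier results of these data known. Alternatives were another added amount, CPM, centring, other lower limits and 2-fold. Some genes that this rule names are not reported here.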

Additional observations from a re-analysis of the deposited data

How the results depend on the processing

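Of 42 recomputed counts of the 5 genes past 4-fold, 37 stayed within 1.5 times. The genes lower in POST pituitary gland numbered 4, and 2 when 1 was added in place of 0.2. Those lower in POST hypothalamus numbered 1, and 3 at 2-fold. Those higher in PRE hypothalamus than in pituitary gland numbered 0, and 1 with CPM or at 2-fold. Those higher in POST hypothalamus than in pituitary gland numbered 2, and 1 when 1 was added. Over 50 gene and contrast pairs, 12 changes of call arose in 10 pairs, and no counted difference changed sign. Every gene was represented once, so summing entries of one name had nothing to sum. Leaving out an animal was not run and no paired analysis was possible because only group means were used. Depth limits KL, and OTX2 outside brain and pituitary gland, whose means rest on few reads.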
